A study of Mus musculus with 71 samples.

Results

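The 39 genes described here encode subunits and assembly factors of mitochondrial complex I, out of 12393 mouse genes that a probe set of the array names on its own. They were taken by name alone, as every gene with an Nduf symbol of the a, b, c, s, v, ab or af series, and a probe set annotated to more than 1 gene was not used. RNA came from 2 fibroblast-like mouse lines turned into adipocytes, 3T3-L1 and C3H/10T1/2, and was hybridized to 71 Affymetrix 430A arrays. Both lines had met rosiglitazone (RSG), an agonist of the fat cell receptor PPARγ, before the comparison began. 3T3-L1 cells were differentiated with insulin, IBMX, dexamethasone and 0.1 µM RSG for 2 days and then without RSG, whereas C3H/10T1/2 cells received 10 µM RSG with insulin for 6 days. After a washout of 24 hrs in medium with albumin, the adipocytes, called cells from here on, were given 1 µM RSG or DMSO as vehicle and were harvested after 1, 2, 4, 7, 24 or 48 hrs. There were 3 arrays in a group, but 2 in the DMSO group of 3T3-L1 cells at 2 hrs. Each array is a pool of wells, and the study's methods give the replicates of a group as separate differentiation batches of the 1 line, so that p values measure the spread between batches and not between animals. Cell line and differentiation protocol cannot be told apart in any comparison of the lines.

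Complex I takes electrons from NADH, passes them along iron-sulfur clusters to ubiquinone and pumps protons across the inner mitochondrial membrane. Its peripheral arm reaches into the matrix and holds the flavin, the clusters and the quinone site, and its membrane arm holds the proton pumps, whose core subunits are encoded in mitochondrial DNA. The conserved core shared with bacteria is surrounded by accessory subunits, most of them named Ndufa and Ndufb, which stabilize the complex or serve its assembly. Assembly factors (Ndufaf) join modules of the complex and are not part of the finished enzyme. In white fat cells the chain oxidizes the NADH of fatty acid and glucose breakdown.

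Of the 39 genes, 6 encode conserved core subunits (Ndufs1, Ndufs3, Ndufs7, Ndufs8, Ndufv1 and Ndufv2), 3 other Ndufs or Ndufv subunits, 11 Ndufa subunits, 10 Ndufb subunits and 5 assembly factors, and Ndufc1, Ndufc2 and Ndufab1 make up a further 3. Ndufa4 carries the name but is now counted as a subunit of complex IV. All 39 genes passed the filter on low signals in both lines, and 35 lay above the 75th percentile of genes by mean signal, so that their counts are also set beside those brighter genes. Adipocyte markers were present in both lines (10 of 10 genes). Of 6 brown fat genes 3 were present in both lines, and Ucp1, Zic1 and Lhx8 were under the presence limit. The share of probe sets above that limit was 67.7% to 73.9% on 3T3-L1 arrays and 62% to 67.6% on C3H/10T1/2 arrays. The 3'/5' ratio of Gapdh, a sign of RNA quality, ran from 0.714 to 0.922, with overlapping ranges in RSG and DMSO arrays. Signals are MAS 5.0 intensities on a linear scale. Differences are log2(RSG) minus log2(DMSO) with their standard error (SE), and a gene is called where the adjusted p of limma lies under 0.05.

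A large share of the complex I genes was higher with RSG than with DMSO, late and in both lines. At 1, 2 and 4 hrs 0 of 39 genes were called in either line, and at an unadjusted p under 0.05 the count over these times reached 1 in 3T3-L1 and 3 in C3H/10T1/2 cells, all of them at 4 hrs. Over all genes tested, 0.0862%, 0.191% and 0.833% were called at these times in 3T3-L1 cells and 0.0532%, 0.276% and 0.84% in C3H/10T1/2 cells. At 24 hrs 20 of 39 were higher and 1 lower in 3T3-L1 cells, where 5.16% of all genes were higher and 7.43% lower. At 24 hrs 23 were higher and 0 lower in C3H/10T1/2 cells, against 4.06% and 4.58% of all genes. The count with an unadjusted p under 0.05 was 28 higher and 1 lower in the first line and 32 higher and 0 lower in the second. No share of all genes at an unadjusted p is given in this text, so unadjusted counts cannot be set against the shares called. Among the brighter genes, those above the 75th percentile of signal, the share called higher was 12.6% and 8.91%.

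By 48 hrs the genes called higher numbered 17 among 3T3-L1 and 16 among C3H/10T1/2 cells, with 0 lower in either (by unadjusted p 24 and 30 higher, 0 lower). Of all genes 6.17% and 3.18% were then higher (14.2% and 6.78% among the brighter genes), and 8.65% and 2.91% lower. The median log2 difference of the 39 genes in 3T3-L1 cells went from 0.14 at 7 hrs to 0.44 at 24 hrs and stood at 0.35 at 48 hrs. For C3H/10T1/2 cells the medians at these times were 0.12, 0.40 and 0.35. The median over all genes stayed between -0.07 and 0.00 at these times. The differences were small for single genes, and none of the 39 passed 1 on the log2 scale, a doubling, at 24 or 48 hrs.

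**Figure D1:**
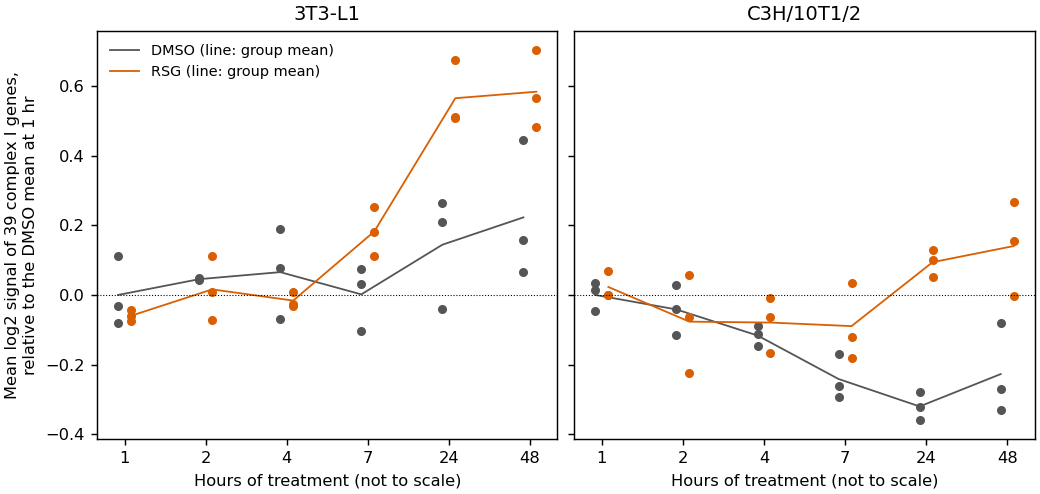
Mean log2 signal of the 39 complex I genes on each array, set against the mean of the DMSO arrays at 1 hr of the same line, by hours of treatment. Points are arrays and lines join group means. RSG arrays lie above DMSO arrays at 24 hrs in both lines. At 7, 24 and 48 hrs the RSG means of 3T3-L1 cells are 0.18, 0.57 and 0.58. Their DMSO means are 0.00, 0.14 and 0.22. In C3H/10T1/2 cells the RSG means are -0.09, 0.09 and 0.14 at these times. The DMSO means there are -0.24, -0.32 and -0.23.

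By array, the mean of the 39 genes at 24 hrs lay from -0.04 to 0.27 in the DMSO arrays and from 0.51 to 0.68 in the RSG arrays of 3T3-L1 cells, on the scale where DMSO at 1 hr is 0. In C3H/10T1/2 cells the same means lay from -0.36 to -0.28 and from 0.05 to 0.13. The groups did not overlap at 24 hrs in either line, nor at 48 hrs. At 48 hrs they lay from 0.07 to 0.45 and from 0.48 to 0.70 in 3T3-L1 cells, and from -0.33 to -0.08 and from 0.00 to 0.27 in C3H/10T1/2 cells. Gene by gene, every RSG array was above every DMSO array for 31 of 39 genes in 3T3-L1 and 33 of 39 in C3H/10T1/2 cells at 24 hrs, where 13.2% and 9.81% of all genes were so placed. At 48 hrs this held for 16 and 23 genes (10.7% and 9.44% of all genes), and at 7 hrs for 15 and 11 (7.78% and 7.42%).

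The counts rest on few arrays. In 3T3-L1 cells at 24 hrs, 11 genes were higher without RSG replicate 1 and 9 without DMSO replicate 2. Within the C3H/10T1/2 line at 24 hrs the count fell to 15 without RSG replicate 1 or DMSO replicate 3, to 14 without RSG replicate 3 or DMSO replicate 1 and to 13 without DMSO replicate 2. At 48 hrs the count of 3T3-L1 cells came to 8 if RSG replicate 1 was left out and to 10 if DMSO replicate 2 or 3 was. That of C3H/10T1/2 cells came to 8 if RSG replicate 2 was left out, 9 if DMSO replicate 1 was and 10 if DMSO replicate 3 was. When only the groups compared entered the fit, 5 genes were higher at 48 hrs in 3T3-L1 cells, and 10 and 4 at 24 and 48 hrs in C3H/10T1/2 cells. Quantile normalization left 14 at 24 hrs in C3H/10T1/2 cells. The genes called at 24 hrs whichever array of that comparison was left out were Ndufs1, Ndufv1, Ndufv2, Ndufa4, Ndufa5, Ndufa8, Ndufb6, Ndufb10 and Ndufc1 in 3T3-L1 cells, and Ndufa8, Ndufa9, Ndufa10, Ndufaf4, Ndufb3, Ndufb5, Ndufb6 and Ndufb10 in C3H/10T1/2 cells.

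**Figure D2:**
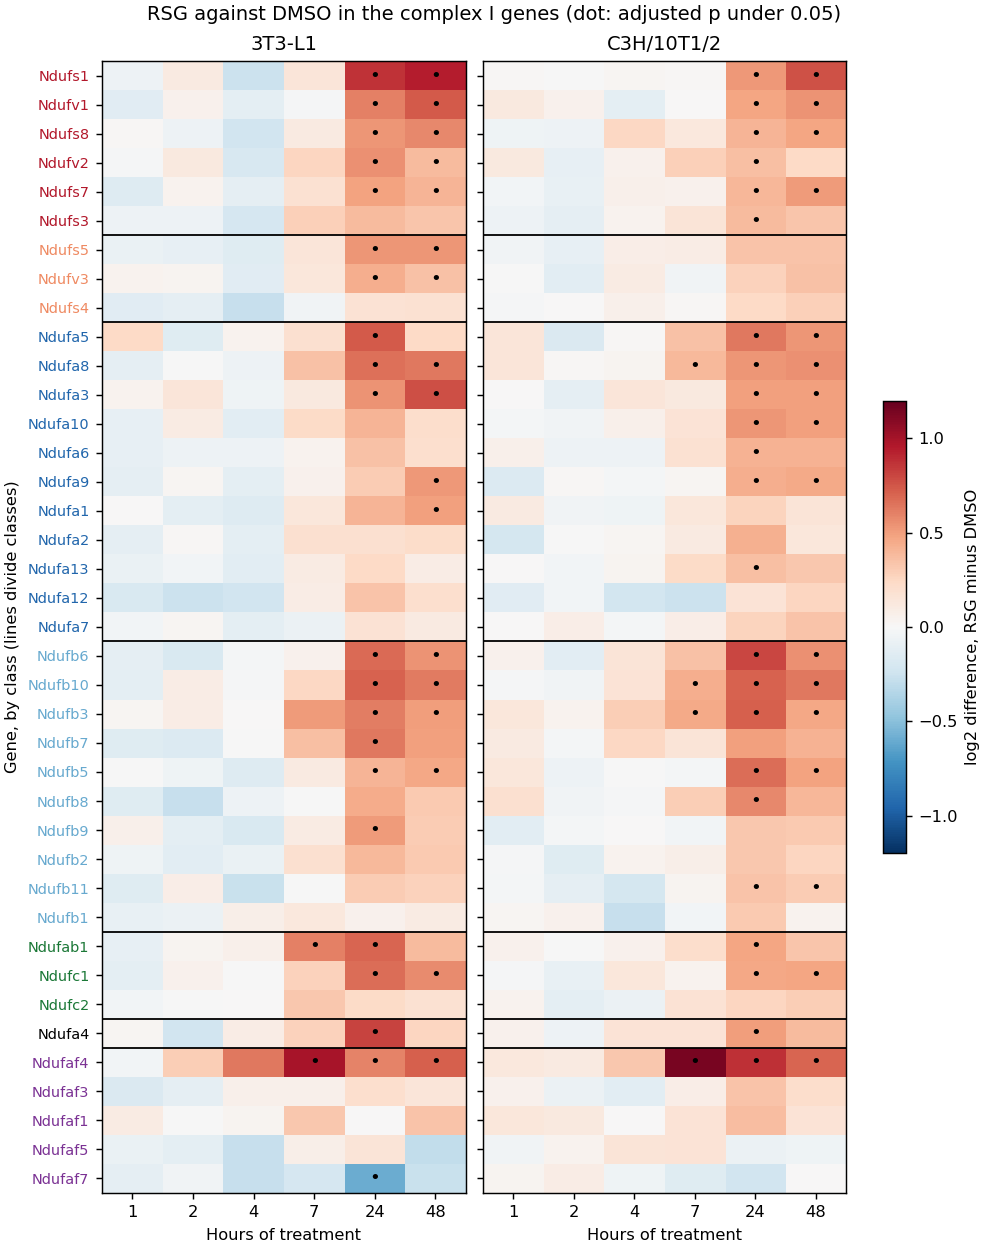
Log2 difference of RSG against DMSO for each of the 39 genes (rows, grouped by class) at 6 times (columns) in both lines, with a dot where the adjusted p of limma is under 0.05. The first 3 columns of each line hold no dot, and at 24 hrs 20 rows of 3T3-L1 and 23 of C3H/10T1/2 cells are called higher and Ndufaf7 lower in 3T3-L1.

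Nearly all of the 6 core genes of the peripheral arm were higher with RSG than with DMSO. At 24 hrs 5 of 6 core genes were higher in 3T3-L1 cells, with a median of 0.53, and 6 of 6 in C3H/10T1/2 cells, with a median of 0.40. Their log2 differences ran from 0.38 to 0.87 and from 0.36 to 0.52. In C3H/10T1/2 cells each of these 6 calls was lost when at least 1 of the arrays compared was left out. In 3T3-L1 cells Ndufs1, Ndufv1 and Ndufv2 kept theirs whichever array was left out. At 48 hrs 5 and 4 of 6 were higher, with medians of 0.49 and 0.49. Ndufs1 (chr1:63143592-63176822, GRCm38.p6), the large iron-sulfur subunit at the entrance of the electron path, had the highest difference of all 39 genes in 3T3-L1 cells at 24 and 48 hrs and in C3H/10T1/2 cells at 48 hrs. Its signals at 24 hrs in 3T3-L1 cells, here and below in ascending order, were 495, 611 and 653 with DMSO and 982, 1095 and 1115 with RSG (0.87 ± 0.16, adjusted p = 0.00037). At 48 hrs they were 516, 612 and 751 with DMSO and 1063, 1138 and 1381 with RSG (0.94 ± 0.16, adjusted p = 0.0001). Every RSG array of both times was above every DMSO array. For C3H/10T1/2 cells Ndufs1 gave 966, 1062 and 1074 and 1419, 1507 and 1524 at 24 hrs (0.52 ± 0.16, adjusted p = 0.039), and 719, 922 and 990.0 and 1446, 1486 and 1497 at 48 hrs (0.76 ± 0.16, adjusted p = 0.0024). The groups did not overlap, and the call at 24 hrs was lost when any 1 of the 6 arrays was left out.

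Ndufv1, which binds NADH and the flavin, had signals of 1265, 1564 and 1736 with DMSO and 2266, 2311 and 2311 with RSG at 24 hrs in 3T3-L1 cells (0.61 ± 0.13, adjusted p = 0.0016). In C3H/10T1/2 cells they were 1598, 1659.7 and 1764 and 1981, 2467 and 2580.3 (0.48 ± 0.11, adjusted p = 0.007). At 48 hrs they were 1340.0, 1356 and 1686 and 2265, 2461 and 2563 in the first line (0.74 ± 0.13, adjusted p = 0.00012), and the second gave 0.54, adjusted p = 0.0027. Ndufv1 thus separated the treatments at both late times in both lines. Ndufv2, its partner with an iron-sulfur cluster, had 1659.5, 1889 and 2168 and 2488, 2887 and 2934 at 24 hrs in 3T3-L1 cells (0.54 ± 0.13, adjusted p = 0.0038), and 1721, 1809 and 1913 and 2269.5, 2325 and 2369 in C3H/10T1/2 cells (0.36 ± 0.10, adjusted p = 0.024). At 48 hrs it passed the test in 3T3-L1 (0.38, adjusted p = 0.043) and not in C3H/10T1/2 cells (0.24, adjusted p = 0.2).

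The core genes around the quinone site were mostly higher with RSG than with DMSO as well. Ndufs7, which carries the last cluster before ubiquinone, gave 1277, 1546 and 1599 and 1893, 1971 and 2302 at 24 hrs in 3T3-L1 cells (0.48 ± 0.14, adjusted p = 0.018) and 2132, 2471 and 2592 and 2790.1, 3339 and 3340.2 in C3H/10T1/2 cells (0.40 ± 0.11, adjusted p = 0.02). Ndufs8, another iron-sulfur subunit, gave 693, 829 and 968 and 1097, 1106 and 1368 (0.53 ± 0.17, adjusted p = 0.035), and 1436, 1489.7 and 1519 and 1880.5, 1887 and 2120.4 (0.40 ± 0.12, adjusted p = 0.031). Both genes were higher on every RSG array than on every DMSO array at 24 hrs. At 48 hrs the differences were 0.41, adjusted p = 0.043 and 0.51, adjusted p = 0.0032 for Ndufs7 in the 2 lines, and 0.58, adjusted p = 0.016 and 0.47, adjusted p = 0.012 for Ndufs8. Ndufs3, a scaffold of the quinone module, gave 1452, 1528 and 1854 and 1829, 2221 and 2242 in 3T3-L1 cells at 24 hrs (0.38 ± 0.14, adjusted p = 0.086), where the groups overlapped and the test was not passed. Within the C3H/10T1/2 line it gave 1608, 1781 and 1787 and 2066, 2098 and 2619 (0.38 ± 0.11, adjusted p = 0.029). Neither line passed the test for Ndufs3 at 48 hrs (0.34, adjusted p = 0.13 for 3T3-L1, and 0.34, adjusted p = 0.074 for C3H/10T1/2).

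**Figure D3:**
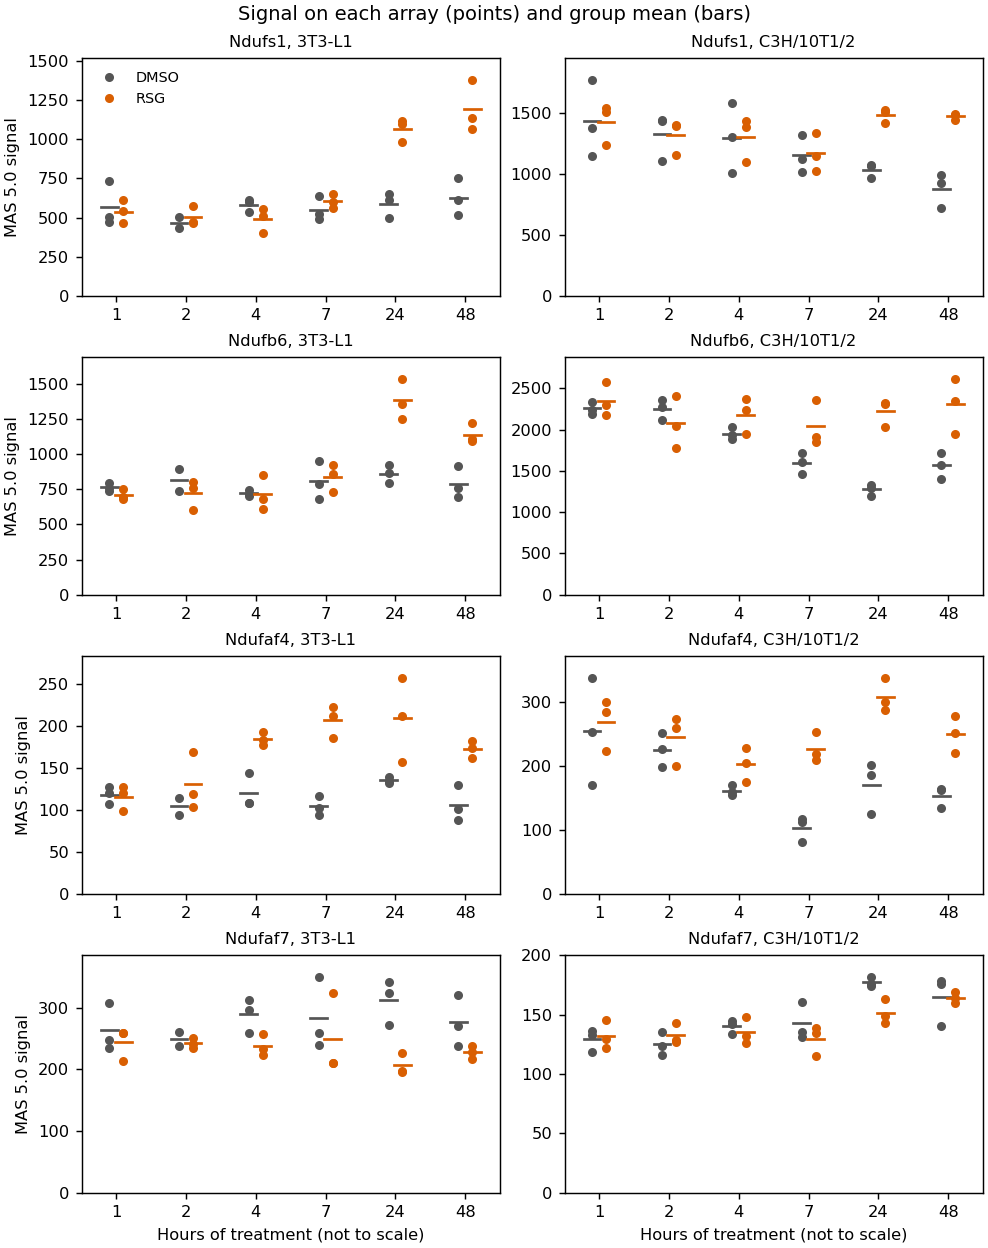
MAS 5.0 signal of 4 of the genes on each array (points) with group means (bars), by hours of treatment, for DMSO and RSG in both lines, each panel starting at 0. Ndufs1 and Ndufb6 part at 24 hrs, Ndufaf4 parts at 7 hrs, and Ndufaf7 is lower with RSG at 24 hrs in 3T3-L1 cells.

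The other Ndufs and Ndufv subunits, Ndufs4, Ndufs5 and Ndufv3, are accessory despite their names. Ndufs5 (0.53, adjusted p = 0.013) and Ndufv3 (0.44, adjusted p = 0.0051) were higher at 24 hrs in 3T3-L1 cells, and Ndufs4 (0.17, adjusted p = 0.53) was not called. For C3H/10T1/2 cells 0 of the 3 passed the test at 24 or 48 hrs, with log2 differences of 0.24 to 0.34 at 24 hrs. At an unadjusted p under 0.05 the count there was 2 at 24 hrs and 3 at 48 hrs. Taken as 1 group, the 9 Ndufs and Ndufv genes had 7 and 6 higher at 24 hrs (medians 0.53 and 0.38), and the 24 subunits of the Ndufa, Ndufb, Ndufc and Ndufab names had 11 and 15 (medians 0.41 and 0.45). No test was made between these groups.

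Of the 11 Ndufa subunits 3 were higher at 24 hrs in 3T3-L1 cells and 7 in C3H/10T1/2 cells, with medians of 0.36 and 0.43. At 48 hrs 4 and 5 were higher (medians 0.22 and 0.41). Ndufa5, a subunit of the peripheral arm, gave 663, 770.1 and 796 with DMSO and 1086, 1292 and 1344 with RSG at 24 hrs in 3T3-L1 cells (0.74 ± 0.14, adjusted p = 0.00065). At 48 hrs its groups, 752, 791 and 1136 and 1012, 1033 and 1065, overlapped (0.24 ± 0.14, adjusted p = 0.32). The difference at 48 hrs was called in C3H/10T1/2 cells (0.53, adjusted p = 0.024), as was that at 24 hrs (0.64, adjusted p = 0.0051). Ndufa3, a small subunit of the membrane arm, had the second highest difference of 3T3-L1 cells at 48 hrs, with 1833, 2056 and 2801 and 3465, 3478 and 4364 (0.77 ± 0.15, adjusted p = 0.00042). In C3H/10T1/2 cells it gave 2789, 3106 and 3482 and 3574, 4525 and 5185 at 48 hrs (0.49 ± 0.14, adjusted p = 0.026). Ndufa8, an intermembrane space subunit with paired cysteine motifs, was called at 24 and 48 hrs in both lines, between 0.53 and 0.66.

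Ndufa12 had the smallest difference of the Ndufa series at 24 hrs in C3H/10T1/2 cells, and Ndufa13 at 48 hrs in 3T3-L1 cells. Ndufa12 gave 1099.5, 1191 and 1202 with DMSO and 1105, 1413 and 1426 with RSG by its brightest probe set at 24 hrs in C3H/10T1/2 cells (0.17 ± 0.18, adjusted p = 0.68), and 0.34 was its difference in 3T3-L1 cells (adjusted p = 0.28). Ndufa13, also known as a cell death regulator, gave 1753, 2367 and 2454 and 2020.5, 2048 and 2971 at 48 hrs in 3T3-L1 cells (0.09 ± 0.14, adjusted p = 0.77). The groups of both genes overlapped in these comparisons. Ndufa13 was called at 24 hrs in C3H/10T1/2 cells (0.36, adjusted p = 0.041). Ndufa1, Ndufa2 and Ndufa7 were not called at 24 hrs in either line, with differences of 0.17 to 0.43.

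Of the 10 Ndufb subunits, all of the membrane arm, 6 were higher at 24 hrs in each line (medians 0.48 and 0.53) and 4 and 5 at 48 hrs. Ndufb6 gave 1198, 1298 and 1331 with DMSO and 2037, 2309.8 and 2323 with RSG at 24 hrs in C3H/10T1/2 cells (0.80 ± 0.12, adjusted p = 3.4e-05), the second highest difference of that comparison. In 3T3-L1 cells it gave 796, 868 and 919 and 1251, 1356 and 1536 (0.68 ± 0.14, adjusted p = 0.00082). Ndufb10 (chr17:24722060-24724423, GRCm38.p6), another intermembrane space subunit, gave 826, 962 and 999.7 and 1441, 1517 and 1594 in 3T3-L1 cells (0.71 ± 0.12, adjusted p = 6.1e-05). Within the C3H/10T1/2 line the signals of Ndufb10 were 749.7, 859.6 and 874 and 1226, 1314 and 1523 (0.71 ± 0.11, adjusted p = 0.00011), and at 48 hrs 797, 845 and 939.7 and 1263, 1324 and 1422 (0.64 ± 0.11, adjusted p = 0.00042). Ndufb6 and Ndufb10 were called at both late times in both lines and kept these calls when single arrays were left out. A dimmer probe set of Ndufb6 was not called at 48 hrs in either line (0.26 and 0.26). Ndufb3 gave 1532, 1557 and 1651 and 2356, 2681 and 2743 at 24 hrs in C3H/10T1/2 cells (0.71 ± 0.12, adjusted p = 0.00018).

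Ndufb1 had the lowest signal of the 39 and, like the brightest probe set of Ndufb2, was not called at any time in either line. It gave 101, 108 and 108 with DMSO and 94.6, 116 and 118 with RSG at 24 hrs in 3T3-L1 cells (0.05 ± 0.18, adjusted p = 0.91), and 97.1, 98.6 and 109 and 100.3, 101 and 125 at 48 hrs (0.09 ± 0.18, adjusted p = 0.82). For C3H/10T1/2 cells the signals were 83, 83.4 and 105 and 92.5, 115 and 132 at 24 hrs (0.32 ± 0.16, adjusted p = 0.25) and, at 48 hrs, 90, 101 and 105 and 98.2, 98.8 and 108 (0.04 ± 0.16, adjusted p = 0.95). The ranges overlapped in all 4 comparisons. By its brightest probe set Ndufb2 gave 0.38, adjusted p = 0.079 and 0.32, adjusted p = 0.28 at 24 hrs in the 2 lines. A dimmer one was called in 3T3-L1 cells at 24 and 48 hrs (0.50 and 0.47). By arm of the complex, 7 of 14 peripheral and 10 of 18 membrane arm genes were higher at 24 hrs in 3T3-L1 cells (medians 0.41 and 0.48), and 9 and 11 in C3H/10T1/2 cells (medians 0.40 and 0.48), so that neither arm stood apart by its count.

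Ndufab1, the mitochondrial acyl carrier protein, serves lipoic acid synthesis as well as complex I. It gave 878, 1117 and 1237 with DMSO and 1551, 1811 and 1834 with RSG at 24 hrs in 3T3-L1 cells (0.70 ± 0.17, adjusted p = 0.0045), and was called in C3H/10T1/2 cells too (0.47, adjusted p = 0.023). Its differences at 48 hrs fell short of the threshold (0.38, adjusted p = 0.14 for 3T3-L1, and 0.33, adjusted p = 0.16 for C3H/10T1/2). Ndufc1 was higher at both times in both lines, between 0.47 and 0.67. Ndufc2 was not called at either time by its brightest probe set, with differences of 0.19 to 0.30. Ndufa4, the complex IV subunit, had the second highest difference of 3T3-L1 cells at 24 hrs, with signals of 1329, 1432 and 1549.9 and 2138, 2724 and 2748 (0.81 ± 0.21, adjusted p = 0.0074). It gave 1593, 1606 and 1749.7 and 2101, 2443 and 2469 in C3H/10T1/2 cells (0.50 ± 0.14, adjusted p = 0.021). At 48 hrs the ranges of Ndufa4 overlapped in both lines and it was not called (0.25, adjusted p = 0.5, and 0.38, adjusted p = 0.12).

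The 5 assembly factors did not move as 1 group. Only Ndufaf4 was higher, at 7, 24 and 48 hrs in both lines. The other 4 were not called higher than in DMSO at any time, and Ndufaf7 was lower at 24 hrs in 3T3-L1 cells. Ndufaf4 works with Ndufaf3 on the quinone module, and its promoter is shown because it alone of the 39 genes was called at 7 hrs in both lines and it holds a full NRF1 motif. These are the 250 bases before the annotated start of Ndufaf4, chr4:24897833-24898082 (plus strand) in GRCm38.p6, from RefSeq, with the motif of the mitochondrial regulator NRF1, GCGCA followed by TGCGC, in capitals.
Ndufaf4: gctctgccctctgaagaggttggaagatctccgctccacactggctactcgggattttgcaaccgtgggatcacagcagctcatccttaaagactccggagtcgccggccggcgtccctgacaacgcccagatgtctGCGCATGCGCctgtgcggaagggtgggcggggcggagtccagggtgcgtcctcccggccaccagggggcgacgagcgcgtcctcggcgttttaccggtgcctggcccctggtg
The motif began 113 bases before the start. It was found in 2 of the 36 members with a promoter entry (5.56%) and in 1.07% of 27025 genes, in windows of 300 bases. The other was Ndufaf5, where it began 16 bases after the start of the promoter entry and is shown with its neighbouring bases at chr2:140170652-140170681 (plus strand).
Ndufaf5: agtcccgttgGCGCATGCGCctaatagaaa
Ndufaf5 was not called at any time, so the pair holds 1 gene that was called higher and 1 that did not pass the test.

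At 7 hrs the signals of Ndufaf4 were 94.4, 102 and 117 with DMSO and 186, 212 and 224 with RSG in 3T3-L1 cells (0.99 ± 0.18, adjusted p = 0.0012). In C3H/10T1/2 cells they were 80.9, 112 and 117 and 209, 218 and 252 (1.14 ± 0.19, adjusted p = 0.00049). RSG arrays were about 2 times as high as DMSO arrays in both lines, without overlap. At 24 hrs Ndufaf4 gave 133, 134 and 139.7 and 157, 213 and 258 in 3T3-L1 cells (0.60 ± 0.18, adjusted p = 0.026) and 124, 186 and 201 and 287, 299.6 and 337 in C3H/10T1/2 cells (0.88 ± 0.19, adjusted p = 0.0037), the highest difference of that comparison. At 48 hrs the signals were 88, 101 and 130.3 and 162, 174 and 182 (0.71 ± 0.18, adjusted p = 0.0059), and 134, 162 and 164 and 219.6, 251 and 278 (0.70 ± 0.19, adjusted p = 0.027). Leaving out 1 array, the call at 24 hrs in 3T3-L1 cells was lost in 5 of 6 refits. That at 48 hrs in C3H/10T1/2 cells was lost in 3 of 6. At 4 hrs the differences were 0.63 ± 0.18, adjusted p = 0.12 in 3T3-L1 and 0.32 ± 0.19, adjusted p = 0.75 in C3H/10T1/2 cells. Neither of these was called.

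Ndufaf7 (chr17:78937106-78948052, GRCm38.p6), a methyltransferase that modifies a core subunit during assembly, gave 272, 324 and 342 with DMSO and 195, 197 and 226 with RSG at 24 hrs in 3T3-L1 cells (-0.60 ± 0.16, adjusted p = 0.01). All RSG arrays were below all DMSO arrays, and the call was lost without DMSO replicate 3. At 48 hrs it gave 238, 271 and 321 and 218, 228 and 238 (-0.27 ± 0.16, adjusted p = 0.3). Within the C3H/10T1/2 line the signals were 174, 176 and 182 and 143, 149 and 163 at 24 hrs (-0.23 ± 0.12, adjusted p = 0.27), without overlap but short of the threshold, and 141, 176 and 178 and 159.5, 164 and 169 at 48 hrs (0.00 ± 0.12, adjusted p = 1.00). Ndufaf1, which serves the membrane arm, gave 258, 338 and 356 and 232, 340.1 and 394 at 24 hrs in 3T3-L1 cells (0.00 ± 0.17, adjusted p = 1.00), and 250.0, 250.3 and 316 and 284, 372 and 403 in C3H/10T1/2 cells (0.37 ± 0.16, adjusted p = 0.16).

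Ndufaf3, the partner of Ndufaf4, gave 195, 225 and 232 with DMSO and 242, 251 and 255 with RSG at 24 hrs in 3T3-L1 cells (0.20 ± 0.11, adjusted p = 0.29). For C3H/10T1/2 cells the signals of Ndufaf3 were 180.5, 196 and 199 and 209, 247 and 275 (0.34 ± 0.13, adjusted p = 0.12). The RSG arrays were above the DMSO arrays in both, by less than Ndufaf4 and short of the threshold. Ndufaf5, a hydroxylase of Ndufs7, gave 118, 128 and 182 and 109, 111 and 124 at 48 hrs in 3T3-L1 cells (-0.29 ± 0.16, adjusted p = 0.27), and in C3H/10T1/2 cells 88.2, 107 and 122 and 90.8, 98.9 and 109 at 24 hrs (-0.07 ± 0.16, adjusted p = 0.86) and 86.9, 109 and 116 and 86.8, 99.6 and 113 at 48 hrs (-0.05 ± 0.16, adjusted p = 0.93). Its groups overlapped in all 3. Of 10 assembly factors with other names, 2 were higher at 24 hrs in 3T3-L1 cells, Foxred1 (0.94, adjusted p = 0.00025) and Aifm1 (0.41, adjusted p = 0.024), and 1 in C3H/10T1/2 cells, Aifm1 (0.43, adjusted p = 0.034). None of the 10 was lower at 24 hrs.

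At 7 hrs the calls were few. In 3T3-L1 cells 2 of 39 genes were higher, Ndufaf4 and Ndufab1 (0.61, adjusted p = 0.049), where 1.43% of all genes were higher and 0.957% lower. Ndufab1 gave 822, 858 and 967 with DMSO and 1235, 1269.7 and 1539 with RSG and was lost when any 1 of the 6 arrays was left out. In C3H/10T1/2 cells 4 were higher (1.8% of all genes, with 1.34% lower), Ndufaf4 together with Ndufb3, Ndufb10 and Ndufa8. Ndufb3 gave 1274, 1396 and 1471 and 1743, 1951 and 1971 (0.45 ± 0.12, adjusted p = 0.03), Ndufb10 669, 769 and 798 and 962, 972 and 1091 (0.44 ± 0.11, adjusted p = 0.027), and Ndufa8 1294, 1505 and 1704 and 1826, 1934 and 2104 (0.39 ± 0.10, adjusted p = 0.035). The count was 2 without RSG replicate 1, DMSO replicate 1 or DMSO replicate 2, and 1 without RSG replicate 3. Ndufaf4 was called whichever array was left out in either line.

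The change from 7 to 24 hrs was tested as a difference of differences. 0 of 39 genes were called in either line, where 0.584% and 0.128% of all genes were. At an unadjusted p under 0.05 the RSG effect grew for 5 genes in 3T3-L1 and 9 in C3H/10T1/2 cells and shrank for 0. With the replicate number as a block, which pairs the C3H/10T1/2 arrays, 1 gene was called there. From 24 to 48 hrs 0 genes were called (0.0766% and 0% of all genes), with an unadjusted count of 1 smaller in 3T3-L1 and 0 in C3H/10T1/2 cells. Of the genes higher at 24 hrs, 16 were shared by the lines, 80% of the 20 of 3T3-L1 and 69.6% of the 23 of C3H/10T1/2 cells. At 48 hrs 13 were shared, 76.5% of 17 and 81.2% of 16. The overlap over all genes called is not given, so these percentages have no reference and are not a measure of agreement between the lines.

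The effect of RSG itself was not called different between the lines for any of the 39 genes by limma, and for 1 gene, at 24 hrs, by the methods' test. In a fit of all 71 arrays 0 genes were called at 7, 24 or 48 hrs, against 0.0285%, 0.313% and 0.949% of all genes, and the count at an unadjusted p under 0.05 was 0 at each time. The 95% interval of the difference, not adjusted for the number of probe sets, held 0 for all 39 genes. Its median half-width was 0.38 on the log2 scale, with a range of 0.28 to 0.54. Differences of about that size could be missed, and the adjusted test could miss larger ones too. Across the 39 genes the effects at 24 hrs, which share no arrays between the lines, had a Pearson r of 0.73 and a Spearman rho of 0.72. Genes are not independent replicates, and within a line all were read from the same arrays. Without the 5 assembly factors the values were 0.61 and 0.68 over 34 genes.

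**Figure D4:**
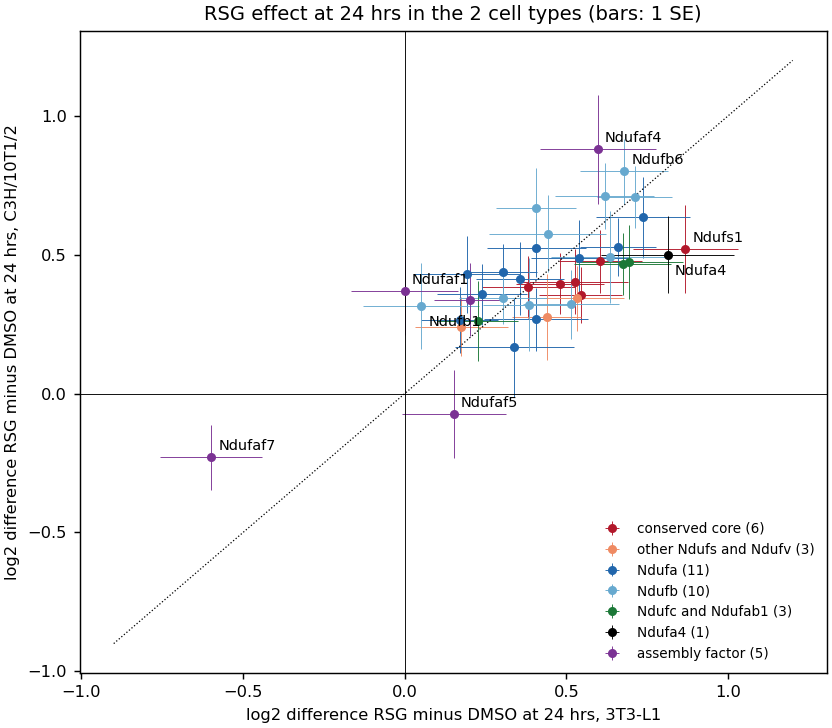
Log2 difference of RSG against DMSO at 24 hrs in 3T3-L1 (x axis) and C3H/10T1/2 cells (y axis) for the 39 genes, coloured by class, with bars of 1 SE. Most points lie right of and above 0. Ndufaf7 lies below 0 on both axes, and Ndufs1 and Ndufaf4 mark the highest differences of the 2 axes.

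The courses within each treatment differed between the lines. In the DMSO arrays of 3T3-L1 cells 0 of 39 genes were called at 24 hrs against 1 hr (0.259% of all genes higher, 0.603% lower), and by unadjusted p 6 were higher and 0 lower. At 48 hrs 1 gene was higher, Ndufa5 (0.72 ± 0.14, adjusted p = 0.0035), with 0.67% of all genes higher and 1.39% lower. That count of 1 moved to 0 without DMSO replicate 1 at 48 hrs, to 3 without DMSO replicate 2 at 48 hrs or replicate 3 at 1 hr and to 2 without DMSO replicate 3 at 48 hrs, and at 24 hrs 1 gene was called without DMSO replicate 2. In the DMSO arrays of C3H/10T1/2 cells 14 genes were lower at 24 hrs and 1 higher, where 6.05% of all genes were lower and 6.91% higher. At 48 hrs 11 were lower and 0 higher (5.34% and 5.82% of all genes), with an unadjusted count of 1 higher. The median DMSO course to 24 hrs came to 0.14 for 3T3-L1 cells and to -0.31 for C3H/10T1/2 cells.

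The genes that fell in C3H/10T1/2 cells with DMSO at 24 hrs were Ndufa2 (-0.53), Ndufa8 (-0.41), Ndufa9 (-0.44), Ndufa10 (-0.49), Ndufa13 (-0.34), Ndufb6 (-0.82), Ndufb9 (-0.48), Ndufb10 (-0.50), Ndufb11 (-0.27), Ndufc1 (-0.44), Ndufs7 (-0.34), Ndufs8 (-0.53), Ndufv1 (-0.45) and Ndufv2 (-0.33), in log2 differences from 1 hr. Ndufb6 fell by most, from 2193, 2239 and 2341 at 1 hr to 1198, 1298 and 1331 at 24 hrs (adjusted p = 7.9e-06). Its RSG arrays at 24 hrs, 2037, 2309.8 and 2323, lay at about the level of the DMSO arrays at 1 hr. Ndufs8 likewise fell from 2078, 2111 and 2223 to 1436, 1489.7 and 1519 in DMSO and was at 1880.5, 1887 and 2120.4 with RSG. The gene that rose was Ndufaf7 (0.46 ± 0.12, adjusted p = 0.007). At 48 hrs Ndufa8, Ndufa9, Ndufa10, Ndufb6, Ndufb10, Ndufc1, Ndufs7, Ndufs8 and Ndufv1 were lower as at 24 hrs, and Ndufs1 (-0.70) and Ndufaf4 (-0.68) were lower too. The 24-hr count was 9 without DMSO replicate 2 of that time. The 48-hr count was 6 without DMSO replicate 1 or 3 at 1 hr, 5 without DMSO replicate 1 and 4 without DMSO replicate 3 at 48 hrs.

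The genes rose over time with RSG in 1 line, and few were called in the other. In 3T3-L1 cells 30 of 39 genes were higher at 24 hrs than at 1 hr and 34 at 48 hrs, with 0 lower, against 5.77% and 5.72% of all genes higher and 8.55% and 7.81% lower. The unadjusted counts were 33 and 37 higher and 0 lower, and the median changes 0.54 and 0.66. Ndufs1, for instance, went from 465, 539 and 612 at 1 hr to 982, 1095 and 1115 at 24 hrs (0.99 ± 0.16, adjusted p = 5.5e-05). Within the C3H/10T1/2 line 0 genes were called at 24 hrs, with 1 higher and 0 lower by unadjusted p, and 1 at 48 hrs, Ndufa3 (0.44 ± 0.14, adjusted p = 0.049), with 7 higher by unadjusted p. Of all genes 2.53% and 3.19% were higher and 2.94% and 4.06% lower. The median changes were 0.06 and 0.09. With the replicate block the 48-hr count was 5. It was 2 without RSG replicate 1 at 48 hrs and 0 without any other array of the 6. These courses share arrays with the comparison of RSG and DMSO, so that the values are not separate support for it.

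**Figure D5:**
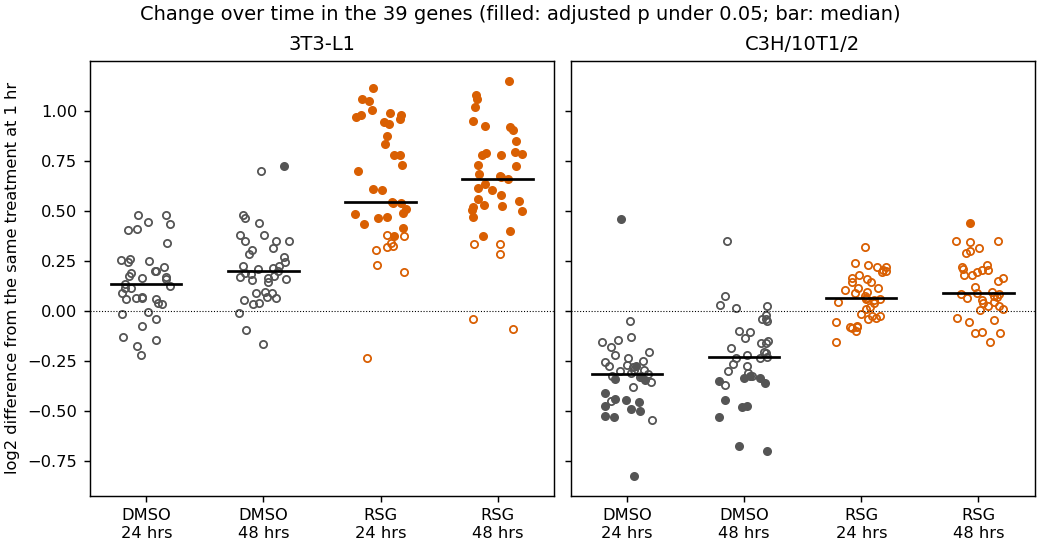
Log2 difference of the 39 genes at 24 and 48 hrs from the same treatment at 1 hr, in both lines. Filled points have an adjusted p under 0.05 and bars are medians. In 3T3-L1 cells the RSG columns hold 30 and 34 called genes, all higher, and in C3H/10T1/2 cells the DMSO columns hold 14 and 11 called lower.

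The difference of these courses between the lines was tested in comparisons chosen after the courses were seen. From 1 to 24 hrs the change in DMSO was higher in 3T3-L1 than in C3H/10T1/2 cells for 10 genes (3.55% of all genes differed) and from 1 to 48 hrs for 6 (3.07%). The replicate block gave 16 and 11. In RSG the change was higher in 3T3-L1 cells for 15 genes at 24 hrs (6.08%) and 16 at 48 hrs (5.62%). Not 1 gene was called in the other direction. Ndufb6 had the highest difference in DMSO at 24 hrs (1.00 ± 0.18, adjusted p = 0.00022) and Ndufb7 in RSG (1.05 ± 0.25, adjusted p = 0.0051). The DMSO count at 24 hrs was as low as 1 without DMSO replicate 1 of 3T3-L1 cells at 1 hr or at 24 hrs, 3 without C3H/10T1/2 replicate 2 at 1 hr, and 4 to 6 without C3H/10T1/2 replicate 1 or 3 at 1 hr or any C3H/10T1/2 replicate at 24 hrs, 3T3-L1 replicate 2 at 1 hr or 3T3-L1 replicate 3 at 24 hrs. The count at 48 hrs was 3 without C3H/10T1/2 replicate 1 or 3 at 48 hrs or 3T3-L1 replicate 1 at 1 hr, and 1 without 3T3-L1 replicate 1 at 48 hrs. The RSG count at 48 hrs was 10 without C3H/10T1/2 RSG replicate 2 at 1 hr or replicate 1 at 48 hrs, and 9 without 3T3-L1 RSG replicate 1 at 48 hrs.

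Most genes with several probe sets gave 1 direction. Of the 20 genes with more than 1 single-gene probe set, Ndufa10 and Ndufa7 had probe sets of opposite sign with at least 1 called. Ndufa10, a membrane arm subunit with a kinase-like fold, was called at 48 hrs in C3H/10T1/2 cells by its brighter probe set (0.49 ± 0.10, adjusted p = 0.0029). The dimmer one, with arithmetic means of 50.4 with RSG and 41.2 with DMSO, gave -0.08 ± 0.40, adjusted p = 0.97, a difference of mean log2 signals that ran against its arithmetic means, since its RSG arrays were widely spread (SD 34). For Ndufa7 the 5 probe sets ran from -0.05 to 0.54 at 48 hrs in 3T3-L1 cells. The highest came from the dimmest probe set (0.54 ± 0.16, adjusted p = 0.019), and the brightest, used above, gave 0.10 ± 0.12, adjusted p = 0.68. Calls also differed between probe sets of 1 direction. A dimmer one passed the test where the brightest did not for Ndufa12 at 24 hrs in 3T3-L1 cells (0.64 ± 0.15, adjusted p = 0.0045, and 0.45 ± 0.15, adjusted p = 0.043), and its differences in C3H/10T1/2 cells were 0.60 and 0.47, not called. The same held for Ndufc2 in C3H/10T1/2 cells at 7 hrs (0.38 ± 0.10, adjusted p = 0.035), 24 hrs (0.56 ± 0.10, adjusted p = 0.00052) and 48 hrs (0.46 ± 0.10, adjusted p = 0.0045), and for Ndufb2 in 3T3-L1 cells at 24 hrs (0.50 ± 0.14, adjusted p = 0.015) and 48 hrs (0.47 ± 0.14, adjusted p = 0.018). At 48 hrs it held for Ndufb7 in 3T3-L1 (0.39 ± 0.12, adjusted p = 0.025) and Ndufv2 in C3H/10T1/2 cells (0.41 ± 0.12, adjusted p = 0.031). The reverse was a dimmer probe set short of the threshold where the brightest was called. At 24 hrs the reverse held for Ndufa3, Ndufab1, Ndufaf4, Ndufb5, Ndufs7, Ndufs8 and Ndufv2 in 3T3-L1 cells. In C3H/10T1/2 cells it held then for Ndufa3, Ndufa10, Ndufab1, Ndufb11, Ndufs7, Ndufs8 and Ndufv1. At 48 hrs the genes were Ndufb6, Ndufc1, Ndufs7 and Ndufs8 in 3T3-L1 cells. In C3H/10T1/2 cells they were Ndufa3, Ndufa10, Ndufb5, Ndufb6, Ndufb11, Ndufs7 and Ndufs8. At 7 hrs the gene was Ndufab1, in 3T3-L1 cells.

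Other promoter motifs were looked for in the same 300 bases (250 before the annotated start and 50 from it on, both strands) of the 36 members with an entry. Ndufa2, Ndufb9 and Ndufs1 had no entry. The letters AAGATGGC of a YY1 motif were in 6 of 36 members (16.7%), Ndufa3, Ndufa9, Ndufb8, Ndufc1, Ndufs4 and Ndufs7, and in 3.19% of all genes. All 6 matches began 22 to 38 bases after the start of the promoter entry on the strand of the gene (for Ndufa3, Ndufs7 and Ndufaf5 that start lies downstream of the first base of the annotated gene), and the letters hold an ATG, which was not compared with the start codon. They are shown because they lie at nearly the same place in genes that moved differently, Ndufa3, Ndufc1 and Ndufs7 being called at 24 hrs in both lines and Ndufs4 in neither. Capitals mark the motif, and the windows, in GRCm38.p6, are chr7:3617384-3617413 (plus strand), chr6:126849097-126849126 (minus strand), chr19:44555393-44555422 (minus strand), chr3:51408915-51408944 (minus strand), chr13:114388045-114388074 (minus strand) and chr10:80249462-80249491 (plus strand).
Ndufa3: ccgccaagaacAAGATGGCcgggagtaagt
Ndufa9: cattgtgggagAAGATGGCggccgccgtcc
Ndufb8: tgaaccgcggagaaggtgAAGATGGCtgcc
Ndufc1: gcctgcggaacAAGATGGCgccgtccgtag
Ndufs4: gcgtttgcctacaggAAGATGGCggcggtc
Ndufs7: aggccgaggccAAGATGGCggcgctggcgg
The ETS motif CCGGAAGT was in 1 member, Ndufs3 (2.78%, against 4.31% of all genes), at its start. The letters TCAAGGTCA of the estrogen-related receptors were in 0 of 36 (0.466% of all genes), and the direct repeat of PPAR, AGGTCA, any 1 base and AGGTCA again, was in 0 of 36 (0.0481%). CCAAT was in 10 (27.8%, against 41.1% of all genes). A match is a description of these letters only.

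The genes of the other respiratory complexes were read from lists made by function. At 24 hrs 2 of 7 complex II genes were called higher among 3T3-L1 and 2 of 7 among C3H/10T1/2 cells. For complex III with cytochrome c the counts were 10 of 15 and 7 of 15, for complex IV 8 of 23 and 5 of 21, and for complex V 9 of 17 and 10 of 17. Of all genes 5.16% and 4.06% were higher in the 2 lines. Cycs, cytochrome c, was higher with RSG by 1.87 ± 0.15, adjusted p = 2.6e-10 in 3T3-L1 and 0.83 ± 0.15, adjusted p = 0.0007 in C3H/10T1/2 cells. Cox7a1, a complex IV subunit of heart and brown fat, was higher by 1.30 ± 0.25, adjusted p = 0.00054 and 1.06 ± 0.24, adjusted p = 0.0044. The medians of the 4 lists were 0.34, 0.63, 0.39 and 0.41 in 3T3-L1 cells and 0.30, 0.45, 0.22 and 0.37 in C3H/10T1/2 cells. The genes of these lists called lower were Atpif1, the inhibitor of the ATP synthase, in both lines (-1.11 ± 0.17, adjusted p = 1.7e-05, and -0.73 ± 0.17, adjusted p = 0.0053), and Surf1, an assembly factor of complex IV, in 3T3-L1 cells (-0.56 ± 0.18, adjusted p = 0.035). Etfdh, which brings electrons of fatty acid oxidation to ubiquinone without complex I, was higher in both (1.05 ± 0.14, adjusted p = 5.2e-06, and 0.88 ± 0.11, adjusted p = 4.8e-06).

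Of 13 regulators of mitochondrial genes, Ppargc1b, a coactivator, was called before any complex I gene. It was higher at 2 hrs in 3T3-L1 (0.97 ± 0.20, adjusted p = 0.017) and at 4 hrs in C3H/10T1/2 cells (1.71 ± 0.25, adjusted p = 0.0001). Esrra, the estrogen-related receptor that works with it, was higher at 24 hrs in both lines (0.74 ± 0.14, adjusted p = 0.00037, and 0.49 ± 0.12, adjusted p = 0.011). Ppara, a nuclear receptor of fatty acid oxidation, was called higher at 24 hrs in both lines (adjusted p = 0.006 and 0.00035), but its DMSO mean there was under the presence limit in each, so no size is given. Ppargc1a, Tfam, Nrf1, Gabpa and Yy1, named after their values were seen, were not called at any time from 2 to 48 hrs in either line.

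Markers of undifferentiated cells lay lower with RSG at 24 hrs, where many complex I genes were higher. Of 12 fibroblast and preadipocyte genes 5 were called lower at 24 hrs in each line, where 7.43% and 4.58% of all genes were lower. Pdgfrb was among them (-1.27 and -1.40), and all 12 differences were below 0 in both lines (medians -0.66 and -0.69). Their summed signal at 24 hrs ran from 23204 to 27846 with DMSO and 17190.0 to 22114 with RSG in 3T3-L1 cells, and from 18498 to 22116 and 13402 to 15008 in C3H/10T1/2 cells. The 10 adipocyte markers summed to 36879 to 44777 and 44481 to 56759 in the first line and 35042 to 39653 and 34304 to 44648 in the second. The 6 brown fat markers, of which Ucp1, Zic1 and Lhx8 were under the presence limit, summed to 198 to 212 and 299 to 527 in 3T3-L1, and 274 to 591 and 712 to 1113 in C3H/10T1/2 cells. The markers also moved along the courses of each treatment. In DMSO arrays of C3H/10T1/2 cells the brown fat sum was 1351 to 1921 at 1 hr and 227 to 379 at 48 hrs, below its 1-hr range at 24 hrs too, and the fibroblast sum was 15926 to 17630.5 at 1 hr, below its range at 24 hrs, and 17653 to 17859 at 48 hrs. In RSG arrays of 3T3-L1 cells the fibroblast sum was 27648 to 30569.9 at 1 hr, above its range at 24 hrs, and 19114 to 20838 at 48 hrs. There the brown fat sum was 179.7 to 262 at 1 hr, below its range at 24 hrs, and 671 to 1109.8 at 48 hrs. In bulk RNA fewer cells of a type and less RNA per cell cannot be told apart, and the part of these markers in the changes of the complex I genes was not tested.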

How the data were processed

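The authors deposited 1 table of signal intensity values for 71 Affymetrix 430A arrays, computed by MAS 5.0 and scaled between arrays, per the labels and methods. Precision is limited by the number of arrays. Of 22690 probe sets 64 controls were set aside, and 132 values of 0 were set to 0.1 before log2. Genes came from the supplied annotation. A probe set was tested in a line where a group mean reached 19.9, the 95th percentile of 27 negative controls and the presence limit of the methods. Each gene was read from its single-gene probe set of highest mean log2 signal.

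Log2 values were fitted with limma 3.58.1 in R 4.3.3 (lmFit, eBayes with a trend, 1 mean per group, 35 and 36 arrays), p values adjusted by Benjamini and Hochberg over all probe sets tested (18018 and 16114, and 18266 for the joint fit of both lines). Steps were checked on simulated data. Values by array are given for the core subunits, all Ndufaf genes and, in each line at 24 and 48 hrs, the 3 highest and 3 lowest differences. Members called lower in any comparison, called by 7 hrs or with probe sets of opposite sign are named too. The members, lists and comparisons were chosen with earlier results of these data known. The courses between lines were added after the data were seen. Arrays of the same number, group means removed, correlated at over 0.1 in 18 of 18 pairs of C3H/10T1/2 adipocytes and 14 of 17 of 3T3-L1 (the methods give 3 batches, not that a number marks 1), so the number was taken to pair only the former. Promoters are from RefSeq GRCm38.p6.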

Additional observations from a re-analysis of the deposited data

Results flagged for a closer look

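The changes within a treatment from 1 hr on differed between 3T3-L1 and C3H/10T1/2 adipocytes for some complex I genes, by limma's test of the difference in a fit of both lines. In DMSO 10 genes differed at 24 hrs, led by Ndufb6 (1.00, adjusted p = 0.00022), Ndufaf1 (0.79, adjusted p = 0.038) and Ndufa5 (0.78, adjusted p = 0.02), in log2 differences of 3T3-L1 minus C3H/10T1/2. At 48 hrs 6 differed, led by Ndufa4 (0.97, adjusted p = 0.019), Ndufs1 (0.84, adjusted p = 0.029) and Ndufa5 (0.77, adjusted p = 0.026). In RSG 15 differed at 24 hrs, led by Ndufb7 (1.05, adjusted p = 0.0051), Ndufb6 (1.04, adjusted p = 6.7e-05) and Ndufa8 (0.97, adjusted p = 1.8e-05). At 48 hrs 16 differed, led by Ndufs1 (1.10, adjusted p = 0.0012), Ndufb7 (1.01, adjusted p = 0.0076) and Ndufc1 (0.91, adjusted p = 0.00071). The course in the vehicle began, in C3H/10T1/2 adipocytes, 1 washout after 6 days of 10 µM RSG and, in 3T3-L1 adipocytes, after 2 days of 0.1 µM RSG at the start of differentiation. Line and protocol cannot be told apart.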

How the results depend on the processing

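All 83 called differences of RSG against DMSO kept their direction under every setting run. They stayed called with a floor at the presence limit, with the replicate block and by the methods' test (unadjusted p under 0.05 and a 1.2-fold difference). That test is without adjustment, and most signals lay far above the floor, so neither setting could readily drop a call. Called differences that lost the threshold numbered 46 when only the groups compared were fitted, 17 after quantile normalization, 11 without the intensity trend, 8 without the filter and 7 with the mean of all probe sets. Leaving out 1 array of a comparison gave 498 refits, of which 151 lost the threshold, the lone pair of arrays then being assumed to vary like other groups. The causes were not tested. Quantile normalization moved the median of all probe sets by up to 0.06.

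Counts of genes that moved by over 1.5 times were these. The shares of called genes given above are from the main fit, and none is given for these settings, which include the unadjusted methods' test. By the methods' test, 1 gene was called at 4 hrs in each line, 5 (3T3-L1) and 8 (C3H/10T1/2) at 7 hrs and 28 at 48 hrs in C3H/10T1/2. In DMSO of 3T3-L1 it called 6 at 24 hrs and 9 at 48 hrs, and in RSG of C3H/10T1/2 1 and 6. It also called 6 (3T3-L1) and 9 (C3H/10T1/2) for 24 against 7 hrs, 2 for 48 against 24 hrs in 3T3-L1, 1 between lines at 24 hrs, and, for courses between lines, 26 and 24 in DMSO and 29 and 27 in RSG. With only the groups compared, 1 gene was higher at 7 hrs in each line, 5 at 48 hrs in 3T3-L1, and 10 and 4 at 24 and 48 hrs in C3H/10T1/2. In DMSO it gave 0 for 3T3-L1 at 48 hrs and, for C3H/10T1/2, 9 at 24 and 2 at 48 hrs, in RSG 0 at 48 hrs in C3H/10T1/2, and between lines 1 and 0 in DMSO and 9 in RSG at 48 hrs. Quantile normalization gave 14 at 24 hrs in C3H/10T1/2, 2 in DMSO (3T3-L1) and 3 in RSG (C3H/10T1/2) at 48 hrs. The median log2 difference at 24 hrs in 3T3-L1 moved from 0.44 to 0.31 with it. The mean of all probe sets gave 1 at 4 hrs, 1 at 7 hrs, 2 in DMSO at 48 hrs and 1 for 24 against 7 hrs, all in 3T3-L1. At 7 hrs in 3T3-L1, 1 gene was left without the trend or the filter. In RSG at 48 hrs in C3H/10T1/2, 0 were left without the trend, with the floor or without the filter.

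With the replicate block 4 genes were called in DMSO at 48 hrs and 2 for 24 against 7 hrs in 3T3-L1, where the numbers were not taken to pair arrays (14 of 17 pairs correlated at over 0.1, from 0.02 to 0.26). In C3H/10T1/2 the block gave 5 in RSG at 48 hrs and 1 for 24 against 7 hrs, and between lines 16 and 11 in DMSO. It moved no other count by over 1.5 times.

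Leaving out 1 array, 3T3-L1 counts ran from 1 to 1 (7 hrs), 9 to 20 and 0 to 1 (24 hrs, higher and lower) and 8 to 22 (48 hrs), with a 48-hr median of 0.27 to 0.50, and from 0 to 1 and 0 to 3 in DMSO. C3H/10T1/2 counts ran from 1 to 3, 13 to 18 and 8 to 20, from 9 to 14 and 4 to 11 in DMSO, and from 0 to 2 in RSG at 48 hrs. Between lines they ran from 1 to 12 and 1 to 9 in DMSO and from 9 to 15 in RSG at 48 hrs. Signals were far above the presence limit for most members, and Ndufb1 and the assembly factors were the dimmest.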

Other observations

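A further 8 probe sets name a complex I gene together with another gene, so that their signal cannot be given to 1 gene. The probe set of Ndufs6 and Ndufs6b had a log2 difference of RSG against DMSO at 24 hrs of 0.72 (adjusted p = 0.067) in 3T3-L1 and 0.53 (adjusted p = 0.0027) in C3H/10T1/2 cells. That of Ndufa11 and Ndufa11b gave 0.66 (adjusted p = 0.015) and 0.45 (adjusted p = 0.047). The brighter of the pair for the Ndufb4 family gave 0.24 (adjusted p = 0.32) and 0.40 (adjusted p = 0.064). Those shared by Ndufs5 and Ndufab1 with pseudogenes gave 0.54 (adjusted p = 0.033) and 0.52 (adjusted p = 0.0064) for Ndufs5, and 0.55 (adjusted p = 0.0083) and 0.48 (adjusted p = 0.049) for Ndufab1. The call for Ndufs5 in C3H/10T1/2 cells was not made by its own probe set (0.34, adjusted p = 0.065).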
